A study of Mus musculus with 19 samples.

Results

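Imprinted genes are transcribed mainly from 1 parental allele. This account follows 33 genes listed as imprinted in the mouse, 12 expressed from the maternal allele, 20 from the paternal allele, and *Gnas*, whose expressed allele depends on the isoform and tissue. They were chosen by symbol as known imprinted genes, with earlier results of these data known, and were looked up among 41388 genes in the count table. A row was matched for 31 of them. *Snrpn* and *Peg13* matched none by identifier and get no value here. A gene entered the test if it had at least 10 counts in at least 1 embryo, and 27 of the 31 did. *H19*, *Airn*, *Zim1* and *Nnat* did not.

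The libraries came from whole single early-stage mouse blastocysts at E3.25 (embryonic day), 8 of the genotype *Upf2* -/- (*Upf2*-null) and 11 of the genotype *Upf2* +/+ (control). All were of the C57BL/6 background. The null allele was made by crossing *Upf2*-floxed mice, with loxP sites in introns 1 and 3, to mice whose Cre recombinase is driven by the *E2a* promoter, so that exons 2 and 3 are deleted, and heterozygous mice were then intercrossed. Females of 4 to 8 weeks were superovulated. Per the methods, zygotes were cultured in M16 medium and early blastocysts taken 90 to 94 h after injection of human chorionic gonadotropin. Each embryo was genotyped by PCR on its own cDNA. The deletion was global and constitutive, so every cell lineage of a *Upf2*-null embryo carried it. The study calls its controls littermates of the *Upf2*-null embryos, but which embryos share a litter or batch is not given in the sources used here, and p-values measure the spread between these embryos.

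UPF2 is a core factor of nonsense-mediated RNA decay (NMD), the pathway that degrades a subset of transcripts, among them many with premature stop codons. At many imprinted genes, though not at all, expression follows DNA methylation set differently in egg and sperm. In the early embryo most DNA methylation is erased. Imprints of this kind are protected by zinc-finger proteins such as ZFP57, which bind the methylated copy and recruit TRIM28 (also called KAP1). Many imprinted genes act on fetal growth, the placenta and nutrient supply, and several lie in clusters controlled by a long noncoding RNA. Both parents were C57BL/6, and the counts do not separate the parental alleles, so every value here is the sum of both.

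ZFP57 recognises the letters TGCCGC when they are methylated. RefSeq promoter sequences on GRCm38.p6, running from 250 bases before to 50 bases after a transcript start, were found for 27 members. The motif TGCCGC or its reverse complement GCGGCA, searched on both strands, was in 11 of 44 member windows (25.0%), against 11.6% of all 32851 windows of the same length. By member, 10 of 27 had it in at least 1 window, 3 of 10 maternally and 7 of 16 paternally expressed. A share by gene over all genes is not given, and a gene with more windows has more chances of a match. The *Mest* windows starting at chr6:30737800 and chr6:30737803 overlap and hold the same matches, so they enter the window count more than once. Member windows also held more CpG dinucleotides, with a median of 14.5 in member windows, against 7 in all windows. The windows of 4 members are shown because those genes carry the results below: *Phlda2* had the lowest p-value, *Peg3* was near 0 in some controls only, *Mcts2* had the highest level per length, and *Zdbf2* had the most motif matches. Capitals mark the motif, and each window is written 5′ to 3′ on the strand of its gene.
*Mcts2* (chr2:152686898-152687197, plus strand): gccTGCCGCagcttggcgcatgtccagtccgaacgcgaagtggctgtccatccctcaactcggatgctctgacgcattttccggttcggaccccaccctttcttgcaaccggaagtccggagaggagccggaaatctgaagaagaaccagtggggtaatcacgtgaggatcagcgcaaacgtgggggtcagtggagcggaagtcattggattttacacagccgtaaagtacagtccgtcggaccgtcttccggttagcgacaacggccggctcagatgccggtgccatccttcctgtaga
*Zdbf2*, upstream start (chr1:63200108-63200407, plus strand): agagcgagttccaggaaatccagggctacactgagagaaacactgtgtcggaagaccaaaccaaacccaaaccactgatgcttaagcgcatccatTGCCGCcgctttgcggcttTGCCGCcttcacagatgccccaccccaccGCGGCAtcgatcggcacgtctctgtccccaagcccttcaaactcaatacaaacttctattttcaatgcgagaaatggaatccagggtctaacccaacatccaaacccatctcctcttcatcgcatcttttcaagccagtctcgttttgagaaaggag
*Peg3* (chr7:6730370-6730669, minus strand): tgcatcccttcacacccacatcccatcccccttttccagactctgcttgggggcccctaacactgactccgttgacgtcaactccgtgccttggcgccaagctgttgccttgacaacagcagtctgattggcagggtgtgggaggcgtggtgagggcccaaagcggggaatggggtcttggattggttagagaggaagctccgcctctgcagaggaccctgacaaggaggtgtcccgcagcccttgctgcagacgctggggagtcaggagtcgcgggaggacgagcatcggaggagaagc
*Phlda2* (chr7:143502475-143502774, minus strand): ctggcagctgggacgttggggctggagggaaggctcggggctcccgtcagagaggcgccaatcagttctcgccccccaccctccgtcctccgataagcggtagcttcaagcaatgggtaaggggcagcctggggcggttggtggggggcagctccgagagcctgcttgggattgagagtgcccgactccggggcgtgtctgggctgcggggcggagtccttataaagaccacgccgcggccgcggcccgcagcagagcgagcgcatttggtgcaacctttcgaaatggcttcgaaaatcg

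The *Zdbf2* window at the upstream start held 3 matches and the *Mcts2* window 1. The other *Zdbf2* window, at the annotated gene start (chr1:63273019-63273318), held 0. Those of *Phlda2* and *Peg3* held none, which says only that these letters are not in these windows.

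Library totals ran from 4068350 to 5993745 counts in *Upf2*-null embryos and from 4056072 to 5854659 in control embryos. The number of genes with a count ran from 15547 to 16906 in *Upf2*-null and from 14522 to 17084 in control embryos. *Upf2* itself averaged 90.9 ± 21.3 CPM (counts scaled to library size after TMM normalisation) over the 8 *Upf2*-null embryos (SD), against 57.8 ± 16.5 CPM over the 11 controls. Its log2 fold change was 0.66 ± 0.18 (SE; edgeR adjusted p = 0.185, DESeq2 adjusted p = 0.0416). The count covers the whole gene, including exons outside the deletion, and so does not test the deletion. Control embryo 5 had the fewest genes detected of all embryos, and *Upf2*-null embryo 2 the fewest of its genotype. The log2 fold changes that rest most on these embryos are also given without them. Of 12 cumulus and granulosa cell markers, the maternal cells that surround the egg, none reached 10 counts in any embryo. Their summed level ran from 0 to 0.598 CPM in *Upf2*-null and from 0 to 2.16 CPM in control embryos, and *Fshr*, *Cyp19a1* and *Lhcgr* were at 0 throughout.

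No imprinted gene passed the test between *Upf2*-null and control embryos (edgeR quasi-likelihood test, Benjamini-Hochberg adjusted p under 0.1). Over all 17137 genes tested, 33 were called, or 0.193%. At an unadjusted p under 0.05, *Impact* was higher and *Phlda2* was lower in *Upf2*-null embryos, 1 of 27 members in each direction. Over all genes the same rule was met by 5.15% in the higher and 7.38% in the lower direction, so the members' share of 1 in 27 was no larger than the background. With DESeq2, *Phlda2* was the sole member called (adjusted p = 0.0979), where 0.432% of all genes were called lower. By DESeq2, 1 member higher and 2 lower of 27 had an unadjusted p under 0.05, against 3.51% of all genes higher and 4.68% lower. With limma voom none was called, and 2 higher and 3 lower of 27 had p under 0.05, against 5.0% of all genes higher and 5.57% lower. The plot of fold changes shows all 27 genes with their standard errors.

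**Figure D1:**
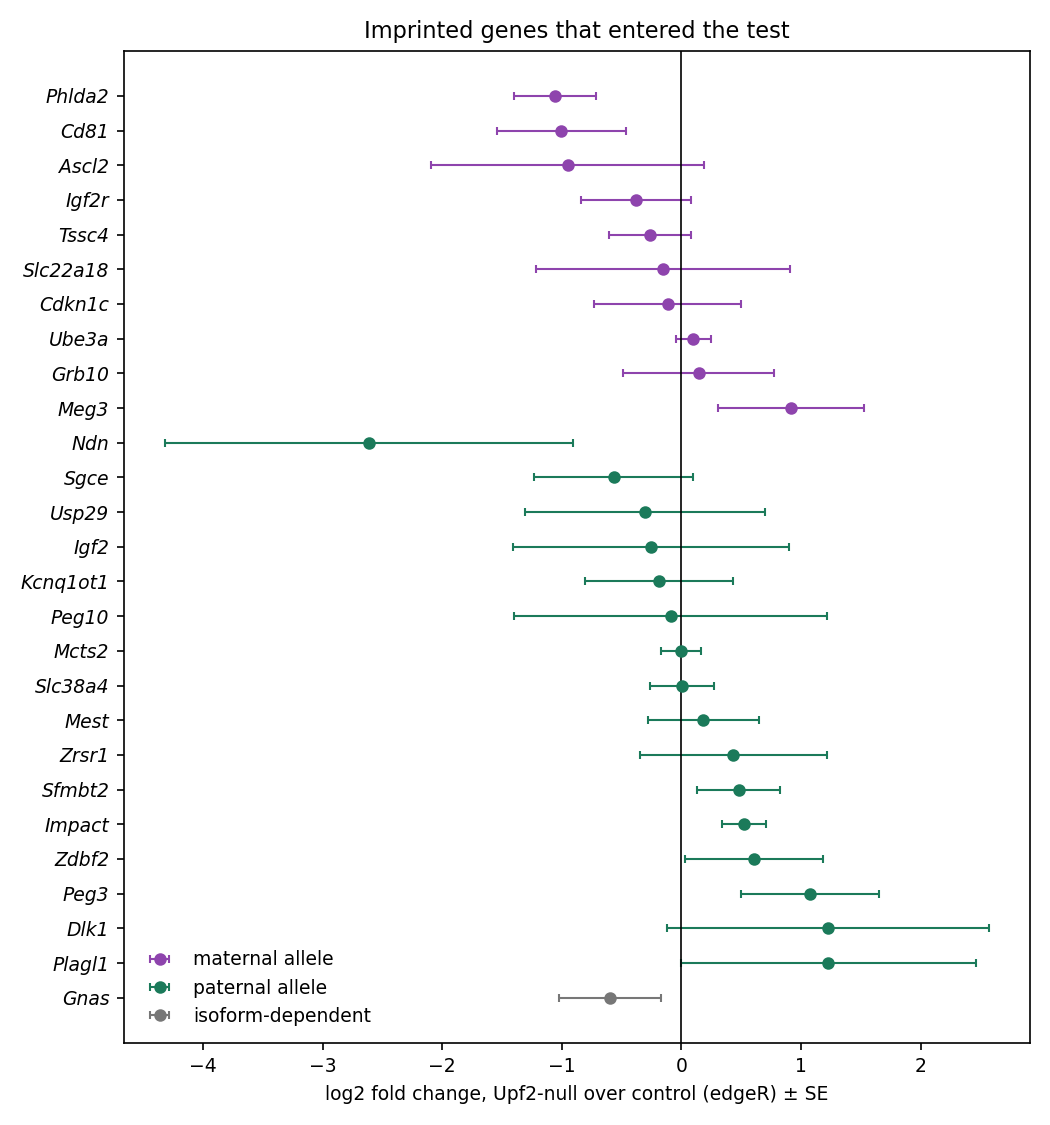
Log2 fold change of each tested imprinted gene, *Upf2*-null over control, from edgeR (points) with its standard error (bars), grouped by the expressed allele. *Phlda2* (-1.06) and *Impact* (0.52) had unadjusted p under 0.05, none of the 27 passed the adjusted threshold, and the error bars of genes with few counts are wide.

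*Phlda2* encodes a small pleckstrin-homology protein that limits growth of the mouse placenta, and it is transcribed from the maternal allele on distal chromosome 7 (GRCm38, 143501545 to 143503150, minus strand). Its lowest, median and highest levels were 6.35, 18.9 and 37.0 CPM in *Upf2*-null embryos, against 17.8, 37.8 and 67.4 CPM in control embryos. All 8 *Upf2*-null embryos were below the control median, and 4 were below the lowest control. The groups still overlapped, since *Upf2*-null embryo 4 stood at the level of the middle controls. Its mean was 18.8 ± 11.4 CPM in *Upf2*-null embryos, against 39.3 ± 14.02 CPM in controls (SD, n = 8 and 11). The log2 fold change was -1.06 ± 0.34 (SE; edgeR p = 0.00547, adjusted p = 0.259). With each embryo left out in turn the log2 fold change ran from -1.27 to -0.93, and the lowest adjusted p was 0.229. *Phlda2* was named by the study as lower on these same embryos, so its direction here is not independent evidence.

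*Impact*, expressed from the paternal allele on chromosome 18 (12955852 to 12992950, plus strand), encodes an inhibitor of the kinase GCN2, which lowers translation when amino acids are short. Its lowest, median and highest levels were 105.3, 148.9 and 189.5 CPM in *Upf2*-null embryos, against 63.6, 86.5 and 165.8 CPM in controls. All 8 *Upf2*-null embryos exceeded the control median, and 7 of the 11 controls were below the lowest *Upf2*-null embryo. The mean of *Impact* was 143.6 ± 28.5 CPM in *Upf2*-null embryos, against 100.1 ± 35.3 CPM in controls (SD, n = 8 and 11), and its log2 fold change was 0.52 ± 0.18 (SE; edgeR adjusted p = 0.262, unadjusted 0.00961). It was also among the members with the smallest spread, with a biological coefficient of variation of 0.287.

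**Figure D2:**
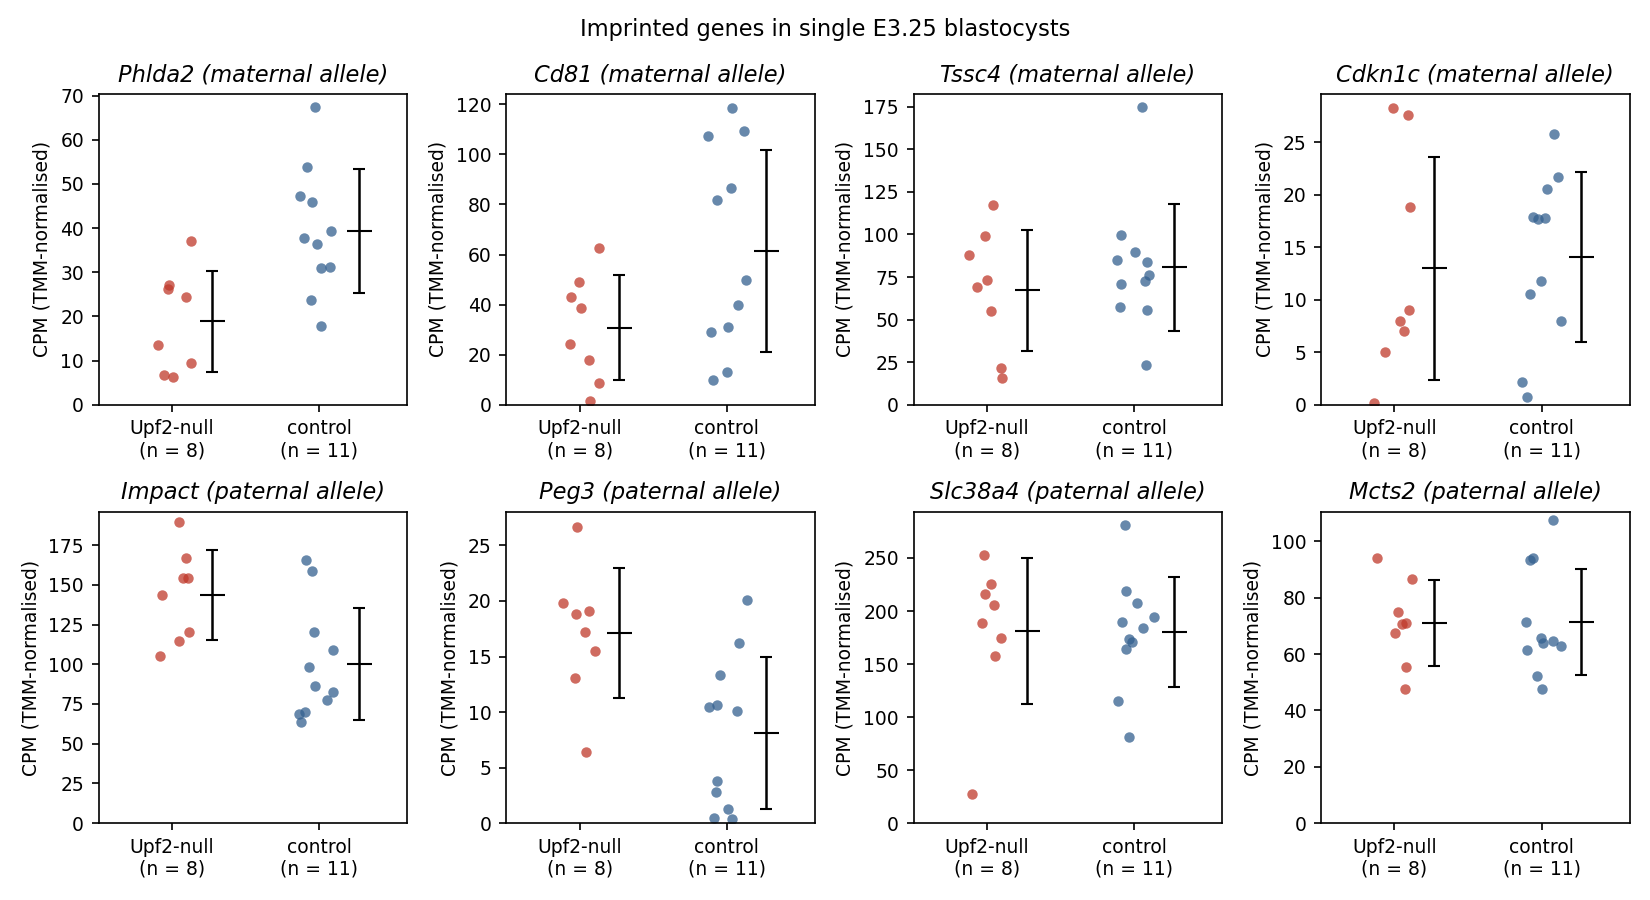
Levels of 8 imprinted genes in each embryo (points, CPM after TMM normalisation, linear axes from 0) with the mean and SD beside them, *Upf2*-null (n = 8) and control (n = 11). All 8 *Upf2*-null embryos lay below the control median for *Phlda2* and above it for *Impact*, while the groups overlapped for every gene shown.

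The other genes of the distal chromosome 7 cluster lie under the control of *Kcnq1ot1*, a long noncoding RNA made from the paternal copy that silences neighbouring genes on that chromosome. With *Igf2* and *H19*, 9 members lay within 927.6 kb. *Phlda2* lay 2.2 kb from *Slc22a18* and 40.5 kb from *Cdkn1c*. All 7 members of the *Kcnq1ot1* domain had a log2 fold change below 0, with a median of -0.26, against a median of -0.02 over all genes, of which 52.3% were below 0. That count covers only the chosen members, picked with *Phlda2* already known to be lower, and does not describe the whole domain. Imprinted genes outside the member list were not sorted by domain. Of the 36 of them tested, 23 were above 0 and 13 below. Most of these values were small beside their errors: leaving out 1 embryo turned *Cdkn1c*, *Slc22a18* and *Kcnq1ot1* above 0 in some cases, and with limma voom *Kcnq1ot1* was at 0.11.

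*Cd81* (chromosome 7, 143052739 to 143067934, plus strand) encodes a tetraspanin membrane protein. Its lowest, median and highest levels were 1.59, 31.4 and 62.5 CPM in *Upf2*-null embryos, against 10.0, 49.9 and 118.5 CPM in controls. In 7 of the 8 *Upf2*-null embryos it was below the control median, and 5 controls exceeded every *Upf2*-null embryo. The log2 fold change was -1.003 ± 0.54 (SE; edgeR p = 0.0759, adjusted p = 0.489). Without *Upf2*-null embryo 2 it was -0.82. With DESeq2 the unadjusted p was 0.0442 (adjusted p = 0.515), and with limma voom the log2 fold change was -1.38 (p = 0.0306, adjusted p = 0.417).

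*Cdkn1c* encodes the cyclin-dependent kinase inhibitor p57. It ran from 0.197 CPM through a median of 8.503 to 28.2 CPM in *Upf2*-null embryos, and from 0.708 through 17.7 to 25.8 CPM in controls. The lowest value was 1 count, in *Upf2*-null embryo 5. The ranges overlapped, although the median was lower in *Upf2*-null embryos. Its fitted log2 fold change was -0.11 ± 0.61, and -0.91 with limma voom (p = 0.261). *Tssc4*, a factor in assembly of the spliceosomal U5 particle, lies 1.3 kb from *Cd81* and ran from 15.9 through 70.97 to 117.1 CPM in *Upf2*-null embryos and from 23.1 through 76.2 to 174.9 CPM in controls. Between genotypes it differed by a log2 fold change of -0.26 ± 0.34. Of its exon length, 11.9% overlaps *Trpm5* on the other strand, and the strand setting of the counts is not given in the sources used here.

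The remaining members of the domain had few counts. *Ascl2*, a transcription factor needed for the spongiotrophoblast of the placenta, reached 10 counts in 4 of 8 *Upf2*-null and 5 of 11 control embryos. It peaked at 5.67 CPM in *Upf2*-null embryos, against 17.8 CPM in controls, and had no count in 2 *Upf2*-null and 3 control embryos. The log2 fold change was -0.95 ± 1.14, and without control embryo 10, its highest, -0.31. *Slc22a18*, an organic cation transporter-like protein, reached 10 counts in 3 *Upf2*-null and 6 control embryos, with a log2 fold change of -0.15 ± 1.06. *Kcnq1ot1* ran from 5.51 through 12.04 to 67.7 CPM in *Upf2*-null and from 1.55 through 15.9 to 87.3 CPM in control embryos, the lowest being control embryo 5 with 7 counts. For *Kcnq1ot1* the log2 fold change was -0.19 ± 0.62, and -0.32 without control embryo 5.

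**Figure D3:**
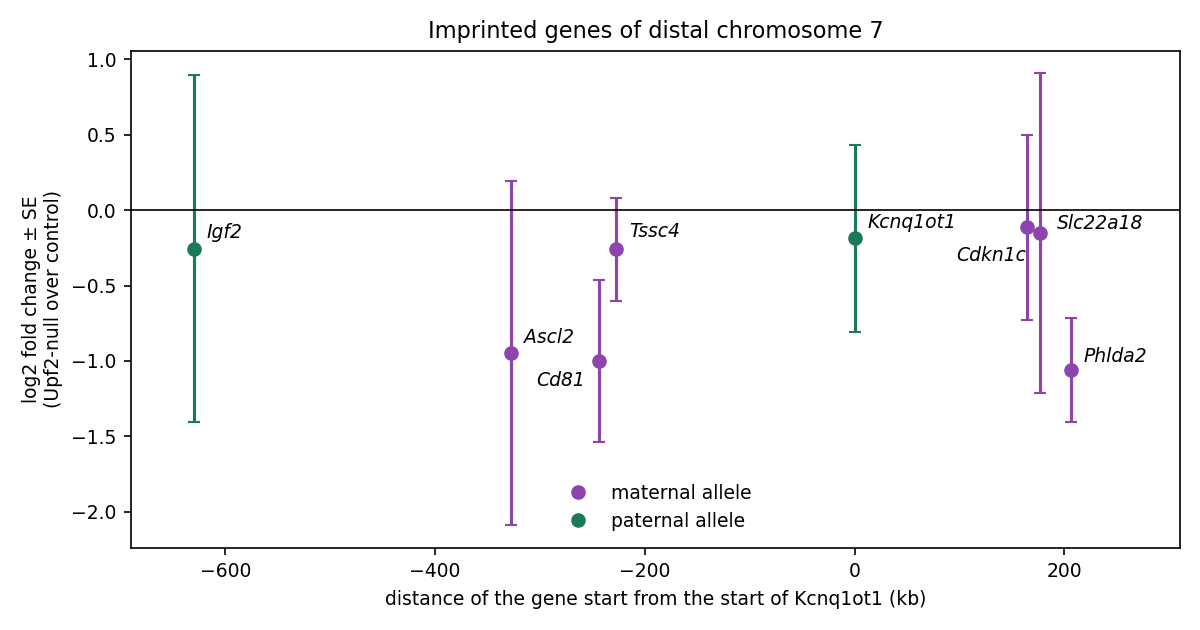
Log2 fold change ± SE (edgeR, *Upf2*-null over control) of the 8 tested members on distal chromosome 7 against the distance in kb of each gene start from the start of *Kcnq1ot1*. Imprinted genes outside the member list are not drawn. All 8 points lay below 0 in this fit, although *Cdkn1c*, *Slc22a18*, *Kcnq1ot1* and *Igf2* turned above it when 1 of the embryos was left out, and the error bars of *Phlda2* and *Cd81* stayed clear of 0.

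At the neighbouring *Igf2*-*H19* locus, *Igf2*, a fetal growth factor from the paternal allele, was uneven. It reached 10 counts in 2 of 8 *Upf2*-null embryos (7 and 8) and in 7 of 11 controls. Its lowest, median and highest levels were 0, 0.187 and 13.3 CPM in *Upf2*-null embryos, against 0, 2.36 and 11.3 CPM in controls. The median was lower in *Upf2*-null embryos, but the highest value was not, and the log2 fold change was -0.26 ± 1.15. With limma voom it was -2.30 (p = 0.0399, adjusted p = 0.45). *H19*, a noncoding RNA from the maternal allele, had at most 3 counts in an embryo, 7 counts in all over the *Upf2*-null and 6 over the control embryos.

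The receptor that clears IGF2, *Igf2r*, is expressed from the maternal allele on chromosome 17, and *Airn*, from the paternal allele, silences it in cis in many tissues. *Igf2r* ran from 11.0 through 62.5 to 94.4 CPM in *Upf2*-null embryos and from 1.11 through 73.4 to 170.9 CPM in controls. The lowest values were 62 counts in *Upf2*-null embryo 2 and 5 counts in control embryo 5, the embryos with the fewest genes detected in each genotype, while every other embryo had at least 220. The log2 fold change was -0.38 ± 0.46, -0.51 without control embryo 5 and -0.22 without *Upf2*-null embryo 2. *Airn* had 1 count in each genotype. *Grb10*, an adaptor that dampens insulin and IGF signalling, ran from 0.709 through 8.41 to 43.6 CPM in *Upf2*-null and from 1.39 through 11.4 to 29.3 CPM in control embryos, with a log2 fold change of 0.14 ± 0.63. *Gnas*, the stimulatory G protein subunit with several imprinted isoforms, ran from 3.59 through 6.52 to 11.2 CPM in *Upf2*-null embryos and from 3.38 through 9.83 to 26.6 CPM in controls. Its log2 fold change was -0.60 ± 0.42, and 22.0% of its exons overlap *Nespas* or *Gm20721* on the other strand.

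*Peg3* is a zinc-finger gene of proximal chromosome 7 (6703892 to 6730431, minus strand), expressed from the paternal allele. Its lowest, median and highest levels were 6.41, 18.1 and 26.7 CPM in *Upf2*-null embryos, against 0.375, 10.1 and 20.1 CPM in controls. The difference lay at the low end: 5 of 11 controls were below every *Upf2*-null embryo, and 7 of 8 *Upf2*-null embryos exceeded the control median. Control embryos 1, 4 and 5 had 2, 6 and 2 counts, whereas the lowest *Upf2*-null embryo had 29. The log2 fold change was 1.07 ± 0.58 (SE; edgeR p = 0.078, adjusted p = 0.496), 0.94 without control embryo 1, and 0.91 without *Upf2*-null embryo 2 and control embryo 5. With limma voom it was 1.599 (p = 0.00893, adjusted p = 0.289). *Usp29*, a deubiquitinase gene whose start lies 146 bp from that of *Peg3*, had 0 counts in 4 of 8 *Upf2*-null and 1 of 11 control embryos and a log2 fold change of -0.30 ± 1.01. *Zim1*, a maternally expressed zinc-finger gene of the same cluster, had 1 count in all, in a control embryo.

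*Slc38a4*, a placental amino acid transporter, ran from 27.6 through 197.3 to 252.7 CPM in *Upf2*-null embryos and from 81.4 through 184.1 to 280.7 CPM in controls. Its low end was *Upf2*-null embryo 2, and the other 7 *Upf2*-null embryos had 157.5 CPM or more. For *Slc38a4* the log2 fold change was 0.01 ± 0.27, and 0.17 without that embryo. *Sfmbt2*, a Polycomb-group gene required for the trophoblast, ran from 15.3 through 60.4 to 92.5 CPM in *Upf2*-null embryos and from 19.7 through 35.0 to 88.7 CPM in controls, with a log2 fold change of 0.48 ± 0.35 (edgeR p = 0.183). *Mest*, which encodes an enzyme-like protein of the hydrolase fold, ran from 15.9 through 29.9 to 54.5 CPM in *Upf2*-null and from 0.772 through 32.5 to 49.1 CPM in control embryos. Control embryo 2 had 3 counts of it. The log2 fold change of *Mest* was 0.18 ± 0.47, and 23.1% of its exons overlap *Copg2* on the other strand.

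The *Peg10*-*Sgce* locus on chromosome 6 gave unequal neighbours. The starts of these paternally expressed genes are 98 bp apart on opposite strands. *Sgce*, epsilon-sarcoglycan, ran from 2.85 through 21.9 to 42.3 CPM in *Upf2*-null and from 1.33 through 17.2 to 92.3 CPM in control embryos, and reached 10 counts in all but control embryo 5. *Peg10*, a retrotransposon-derived gene essential for the placenta, reached 10 counts in only 1 embryo of each genotype, *Upf2*-null embryo 5 (18 counts) and control embryo 3 (26 counts). Per kb of exon, *Sgce* averaged 2.23 CPM in *Upf2*-null and 3.30 CPM in control embryos. *Peg10* averaged 0.0821 CPM in *Upf2*-null and 0.0873 CPM in control embryos on that scale. The log2 fold changes were -0.57 ± 0.66 for *Sgce* (-0.70 without control embryo 5) and -0.09 ± 1.31 for *Peg10*.

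The upstream window of *Zdbf2* that holds 3 motif matches lies outside the gene as annotated. *Zdbf2* is expressed from the paternal allele of chromosome 1 (63273265 to 63314576, plus strand). It ran from 6.55 through 27.6 to 39.2 CPM in *Upf2*-null and from 0.211 through 18.4 to 28.9 CPM in control embryos. Control embryos 4 and 5 had 1 and 2 counts, and every other embryo had at least 27. Its log2 fold change was 0.61 ± 0.58, and 0.47 without control embryo 5. On distal chromosome 12, *Meg3*, a maternally expressed long noncoding RNA, ran from 2.48 through 7.45 to 14.4 CPM in *Upf2*-null embryos and from 0 through 3.87 to 7.72 CPM in controls. Above the control median were 6 of 8 *Upf2*-null embryos, and the log2 fold change was 0.91 ± 0.61 (edgeR p = 0.147, adjusted p = 0.637). *Dlk1*, the atypical Notch ligand 77.7 kb away, reached 10 counts in 1 embryo of each genotype. Its log2 fold change was 1.22 ± 1.35, and -0.40 without *Upf2*-null embryo 7.

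Among the genes of other chromosomes, *Plagl1*, a zinc-finger transcription factor of growth control, reached 10 counts in 3 of 8 *Upf2*-null and 2 of 11 control embryos, with a log2 fold change of 1.23 ± 1.24. *Ndn*, which encodes necdin, had 54 counts in control embryo 4, 6 in *Upf2*-null embryo 5 and 0 in every other embryo, so its log2 fold change of -2.61 ± 1.70 rests on 1 embryo. With DESeq2 the sign was reversed, at 1.99. *Nnat*, neuronatin, had at most 9 counts.

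*Ube3a*, a ubiquitin ligase imprinted in neurons, was the most even member. It ran from 70.9 through 111.4 to 142.5 CPM in *Upf2*-null and from 67.7 through 103.1 to 143.6 CPM in control embryos, with a biological coefficient of variation of 0.238 and a log2 fold change of 0.10 ± 0.15. *Mcts2*, a retrogene copy of the translation factor gene *Mcts1*, ran from 47.6 through 70.8 to 94.2 CPM in *Upf2*-null and from 47.5 through 64.6 to 107.4 CPM in control embryos. Its log2 fold change was -0.01 ± 0.17, against 0.20 ± 0.13 for *Mcts1*. *Zrsr1*, a retrogene of the splicing factor gene *Zrsr2*, ran from 0.578 through 3.72 to 13.5 CPM in *Upf2*-null and from 0 through 3.15 to 14.2 CPM in control embryos, with a log2 fold change of 0.44 ± 0.78, against 0.04 ± 0.32 for *Zrsr2*. Retrogenes resemble their parents in sequence, so how reads were shared between them is uncertain.

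**Figure D4:**
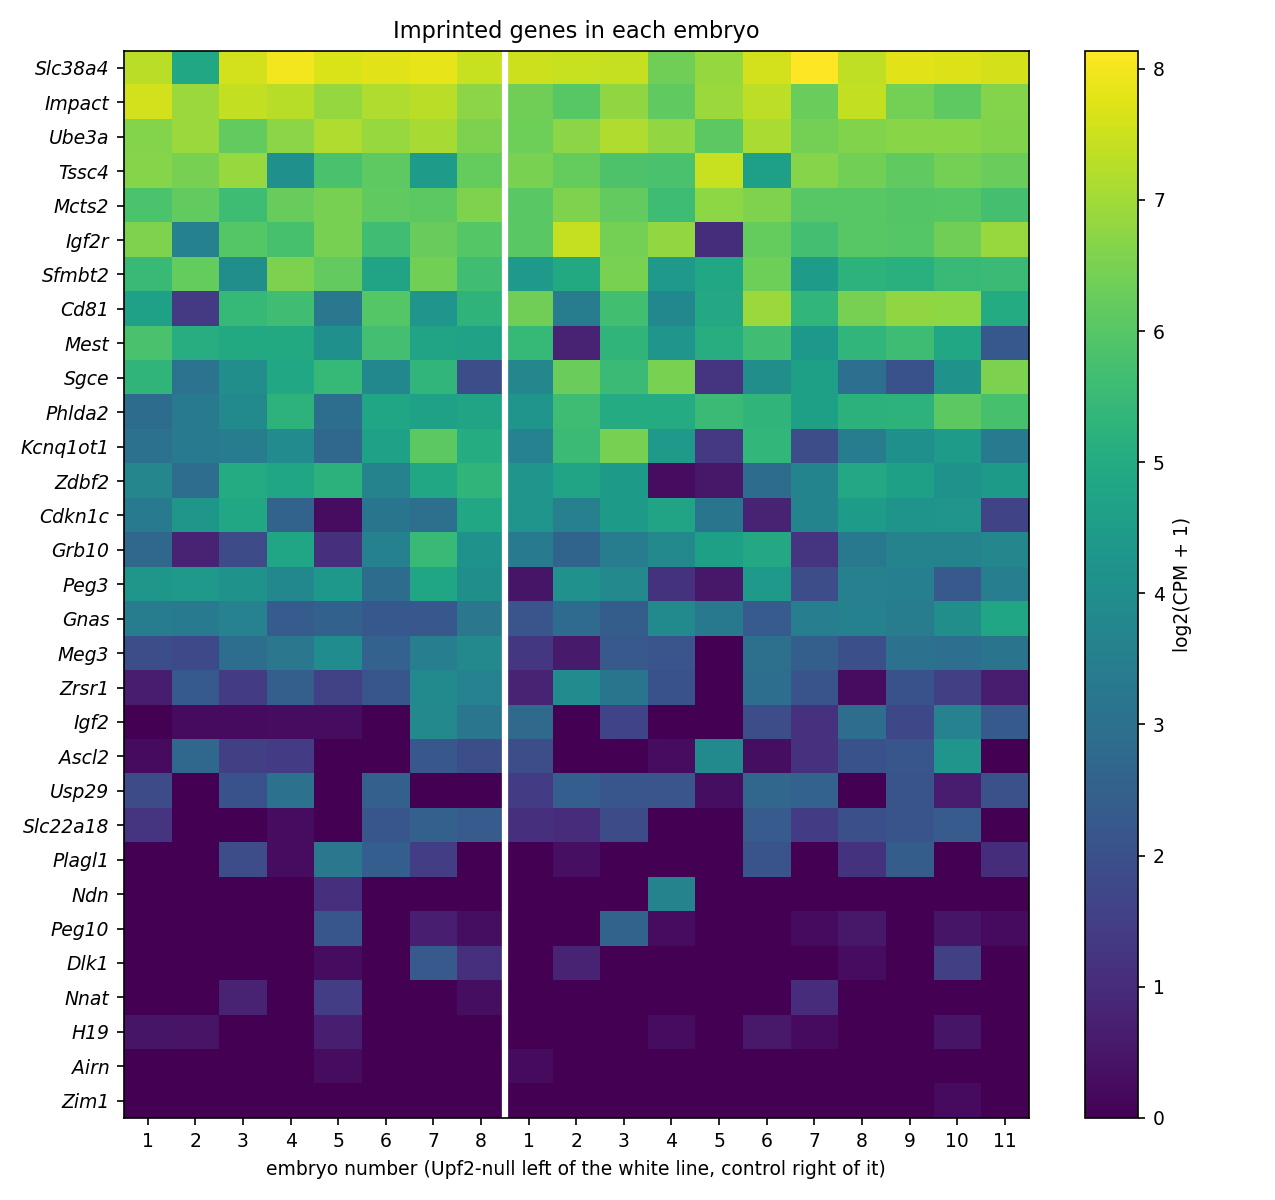
Each of the 31 imprinted genes with a row (rows, ordered by mean level) in each of the 19 embryos (columns, *Upf2*-null left of the white line), coloured by log2(CPM + 1). *Ube3a* and *Mcts2* are even across embryos. *Slc38a4* is low in *Upf2*-null embryo 2, *Igf2r* in that embryo and control embryo 5, and *Peg3* in control embryos 1, 4 and 5.

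Most members were uneven between embryos. Only 8 of the 31 had at least 10 counts in every embryo: *Phlda2*, *Tssc4*, *Impact*, *Ube3a*, *Slc38a4*, *Sfmbt2*, *Gnas* and *Mcts2*. At least 1 count in every embryo was found for 17. *Peg10*, *Ndn* and *Dlk1* entered the test through no more than 1 embryo of each genotype. Of the 27 tested, 19 had a biological coefficient of variation above the trend fitted over all genes at their abundance, against 43.5% of all genes. The median coefficient was 0.836 for members and 0.644 for all genes. The embryos with fewer detected genes held some of the missing values. Control embryo 5 had at least 10 counts for 13 of the 27 members, against 18 to 24 in the other embryos, and 5 of 16 paternally expressed members, against 9 to 13. For maternally expressed members it did not stand apart, with 7 of 10, where the others had 6 to 10. What set these values was not tested. In a whole-embryo library, fewer cells of a type and less RNA per cell cannot be told apart.

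Levels between genes are comparable only per length of exon, and then only roughly. The length takes in every annotated exon of a gene, 0.912 kb for *Mcts2* and 20.6 kb for *Ube3a*. The order below therefore depends in part on how many isoforms are annotated. Over the 31 members with a row, the median level across all embryos was highest for *Mcts2*, at 73.8 CPM per kb, then *Slc38a4* (44.3), *Tssc4* (39.6), *Phlda2* (27.5), *Impact* (22.4) and *Cd81* (13.8), and 7 members had a median of 0. Mean levels in CPM per kb were 77.8 in *Upf2*-null and 78.2 in control embryos for *Mcts2*. For *Phlda2* they were 16.8 in *Upf2*-null and 35.0 in control embryos. *Mest* (7.60) and *Igf2r* (6.98) followed, and did not differ beyond their spread between embryos.

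**Figure D5:**
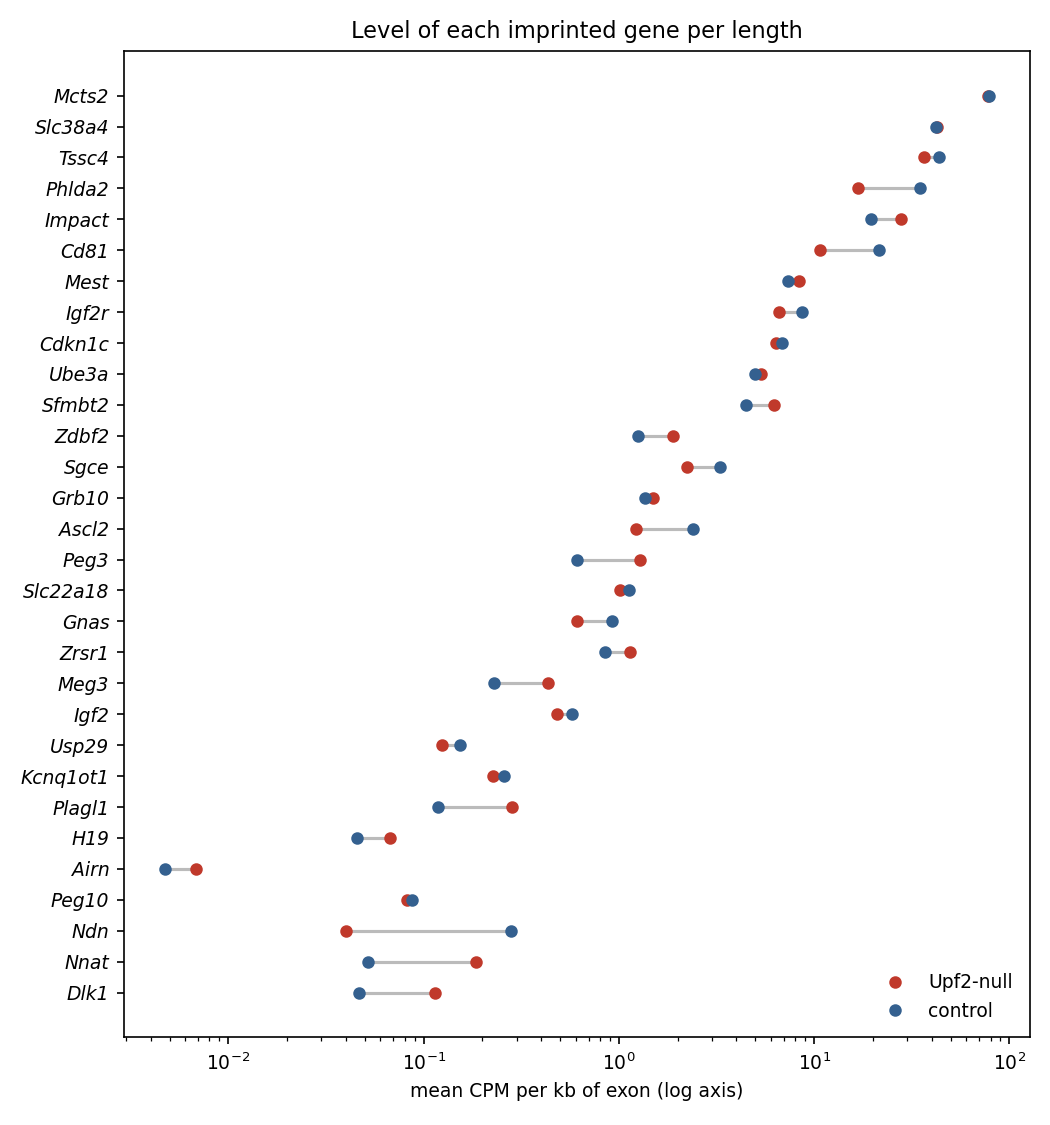
Mean level in CPM per kb of exon (log axis) in *Upf2*-null (red) and control (blue) embryos for the 30 imprinted genes with a count in both genotypes, ordered by the median over all embryos. *Mcts2* and *Slc38a4* coincide between genotypes, and *Phlda2* averaged 16.8 in *Upf2*-null and 35.0 in control embryos.

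Set side by side, 7 of 10 tested maternally expressed members had a log2 fold change below 0, with a median of -0.21, and 7 of 16 paternally expressed members had one, with a median of 0.10. Over all genes 52.3% were below 0 and the median was -0.02. The paternal median was 0.31 with DESeq2, and with 1 embryo left out it ran from -0.02 (without *Upf2*-null embryo 7) to 0.39 (without control embryo 3). From edgeR to DESeq2 *Ndn* went from -2.61 to 1.99, and that change of sign moved the paternal median. *Ndn* had only 54 counts in control embryo 4 and 6 in *Upf2*-null embryo 5. The maternal median was -0.63 with limma voom, and with 1 embryo left out it ran from -0.41 (without *Upf2*-null embryo 7) to -0.09 (without *Upf2*-null embryo 5). The summed level of the 10 maternally expressed members ran from 257.7 through 341.1 to 355.7 CPM in *Upf2*-null embryos and from 321.4 through 403.4 to 502.2 CPM in controls. Of the 11 controls, 10 exceeded every *Upf2*-null embryo. Without *Phlda2* the sums ran from 248.4 through 321.3 to 334.5 CPM in *Upf2*-null embryos and from 297.7 through 369.6 to 434.8 CPM in controls. The summed level of the 16 paternally expressed members ran from 372.0 through 578.9 to 753.1 CPM in *Upf2*-null embryos, 7 of the 8 above the control median, and from 366.7 through 516.7 to 673.2 CPM in controls. Without *Impact* the sums ran from 251.7 through 441.3 to 598.8 CPM in *Upf2*-null embryos and from 286.5 through 430.2 to 554.7 CPM in controls. These sums are descriptions with no test, because members were chosen with earlier results known, and a few abundant genes carry them. Genes were grouped by the allele listed for them, and the counts do not show which allele was expressed in these embryos. Within the maternal sum *Ube3a*, imprinted in neurons, averaged 109.7 CPM in *Upf2*-null and 102.4 CPM in control embryos.

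The relation between members of 1 locus was taken over 6 pairs, as the correlation of log2 CPM over all 19 embryos (100000 permutations, two-sided, adjusted over the pairs). None held. *Peg10* and *Sgce* had Pearson's r = 0.31 (permutation p = 0.201, adjusted p = 0.751) and Spearman's rho = 0.35 (permutation p = 0.147, adjusted p = 0.482), and r was 0.16 without the 2 embryos farthest from the median of *Peg10*. *Phlda2* and *Kcnq1ot1* had r = 0.28 (permutation p = 0.25, adjusted p = 0.751) and rho = 0.34 (permutation p = 0.161, adjusted p = 0.482), with r = 0.10 without the 2 farthest. Within genotypes that pair had r = 0.75 over 8 *Upf2*-null embryos (permutation p = 0.0361, adjusted p = 0.413 over 12 within-genotype values) and r = 0.12 over 11 controls (permutation p = 0.735). *Peg3* and *Usp29*, which start next to each other, had r = -0.073 (permutation p = 0.765) and rho = -0.19 (permutation p = 0.443), with r = -0.30 without the 2 farthest. *Phlda2* and *Cdkn1c* had r = 0.11 (permutation p = 0.661) and rho = -0.18 (permutation p = 0.455), with r = -0.39 without the 2 farthest. *H19* and *Igf2* had r = -0.16 (permutation p = 0.5) and rho = -0.14 (permutation p = 0.578), and *Igf2r* and *Airn* r = 0.10 (permutation p = 0.565) and rho = 0.17 (permutation p = 0.522). In these last pairs the counts of *H19* and *Airn* were too few to read. For these 4 pairs the adjusted p was 0.765 for r and 0.578 for rho. Within genotypes the other pairs had r from -0.61 to 0.37 over the *Upf2*-null embryos and from -0.31 to 0.34 over the controls.

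The genes that keep or set imprints were examined next. Of 23 such genes, 22 were tested, none was called by edgeR, DESeq2 or limma voom, and none had an unadjusted p under 0.05, with a median log2 fold change of -0.12. Of the 22, 17 were below 0 and 5 above, against 52.3% of all genes below 0. The lowest p-value in the lower direction belonged to *Arid4a*, a chromatin protein tied to imprint control in mice, at -0.40 ± 0.23 (edgeR p = 0.103, adjusted p = 0.554), and that in the higher direction to *Uhrf1*, which brings DNA methyltransferase to newly copied DNA, at 0.43 ± 0.33 (edgeR p = 0.218, adjusted p = 0.725). Of 60 further imprinted genes, 36 were tested and none was called by any of these tools. Their median log2 fold change was 0.12, with 23 above 0 and 13 below. At an unadjusted p under 0.05, 3 of the 36 were higher (*Kcnk9*, *Jade1* and *Zfp37*) and 1 was lower (*Qpct*). Over all genes the same rule was met by 5.15% in the higher and 7.38% in the lower direction. *Jade1* and *Zfp37* were chosen after their values were seen. *Zfp37*, a zinc-finger gene, averaged 20.6 ± 16.1 CPM in *Upf2*-null embryos, against 6.99 ± 7.14 CPM in controls (SD, n = 8 and 11), with all 8 *Upf2*-null embryos above the control median. That gave a log2 fold change of 1.55 ± 0.58 (edgeR p = 0.0136, adjusted p = 0.263). *Jade1*, a chromatin-associated protein, averaged 70.5 ± 11.5 CPM in *Upf2*-null and 42.4 ± 18.8 CPM in control embryos. *Kcnk9* had 16 counts in *Upf2*-null and 1 in control embryos, and *Qpct* had 2 in *Upf2*-null and 43 in control embryos, too few to describe further.

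Markers of the blastocyst lineages moved beside these values, and their part in the members' differences was not tested. Of 15 epiblast markers, all tested, 12 had a log2 fold change below 0, and their summed level ran from 1233 to 1567 CPM in *Upf2*-null and from 1379 to 2203 CPM in control embryos. At an unadjusted p under 0.05, 4 were lower: *Nanog*, *Klf2*, *Klf17* and *Fgf4*, the last 3 named after their values were seen. Over all genes 7.38% met that rule in the lower direction. The epiblast marker with the lowest p-value in the higher direction was *Esrrb*, at 0.48 ± 0.44 (edgeR p = 0.293). *Nanog*, a factor of pluripotency, had a log2 fold change of -0.47 ± 0.12 (edgeR adjusted p = 0.15). With DESeq2, 2 epiblast markers were called lower, *Nanog* (adjusted p = 0.0277) and *Fgf4* (adjusted p = 0.0577). The study named both as lower on these same embryos with the same tool, so these calls are not independent evidence. Of 16 trophectoderm markers, the lineage that forms part of the placenta, *Id2* was higher (0.53 ± 0.25) and *Hand1* lower (-2.70 ± 1.01) at that threshold. Their summed level ran from 2310 to 3144 CPM in *Upf2*-null and from 1873 to 3260 CPM in control embryos. Of 15 primitive endoderm markers, 14 were tested, with 11 above 0 and 3 below, and none had p under 0.05. The lowest p-values were those of *Cubn* in the higher direction (0.87 ± 0.52, edgeR p = 0.108) and *Gata4* in the lower (-0.35 ± 1.17, edgeR p = 0.765). Sums of the primitive endoderm markers ran from 287.7 to 474.7 CPM in *Upf2*-null and from 147.7 to 430.3 CPM in control embryos. Of 12 oocyte transcripts, *Oosp1* was lower at an unadjusted p under 0.05, with 0 counts in *Upf2*-null and 55 in control embryos. *Bmp15* had the lowest p-value of that list in the higher direction, at 2.45 ± 1.44 (edgeR p = 0.104). No epiblast, trophectoderm or primitive endoderm marker was at 0 in all embryos, and *Nobox* was the 1 oocyte transcript that was.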

How the data were processed

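Messenger RNA of 19 single blastocysts was amplified by the authors with the SMARTer Ultra Low Input kit, made into Nextera XT libraries and sequenced in pairs. The deposited counts are raw counts per Ensembl gene, which the authors made with STAR 2.5.2a on GRCm38, SAMtools removal of PCR duplicates and featureCounts. The table of scaled values was not used. The deposited merged transcript models, which hold positions and no level per embryo, gave no value in the text.

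Symbols, positions and exon lengths came from GENCODE M21 on GRCm38. The test kept each gene reaching 10 counts in any 1 embryo and ran across all of them with edgeR 4.0.16 (TMM, robust quasi-likelihood, no covariate), called at a Benjamini-Hochberg adjusted p under 0.1. SE is the log2 fold change over the root of the F statistic. CPM are TMM-normalised, and their log2 values carry a prior count of 2. Alternatives were DESeq2 1.42.0, limma 3.58.1 (voom with quality weights), other size factors, no filter, the replicate number as a block, embryos left out and a threshold of 0.05. 1 alternative, without *Upf2*-null embryo 2 and control embryo 5, was added after seeing the data. The software was R 4.3.3, scipy 1.17.1, numpy 2.4.6, matplotlib 3.10.9, pandas 2.3.3 and Python 3.11.15, and the fits were tested on simulated data. The members and lists were chosen with earlier results of these data known. All members are named, and a list gene is named if its adjusted p was under 0.1 or it had the lowest p of its list in either direction. *Klf2*, *Klf17*, *Fgf4*, *Jade1* and *Zfp37* did not meet that rule on the edgeR values and were named after their values were seen. Cell markers with no count in any embryo are also named. Same-numbered embryos did not deviate together, so the numbers were not taken as pairs. Every column of values belonged to an embryo of the series.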

Additional observations from a re-analysis of the deposited data

Results flagged for a closer look

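In 27 members, the 8 *Upf2*-null embryos were searched for a highest or lowest log2 CPM that stood apart from the rest (Dixon's rule). The 11 controls were not searched, so the values below are not particular to *Upf2*-null embryos. Controls also held isolated low values, such as 5 counts of *Igf2r* in control embryo 5 and 3 of *Mest* in control embryo 2. The search found 5 of 27. For normally spread values chance gives about 1 group in 20, a rate that does not apply to *Ndn* and *Peg10*, which had no count in most of these embryos. *Igf2r* had 11.0 CPM in *Upf2*-null embryo 2, where the other *Upf2*-null embryos had 48.6 to 94.4 CPM. *Slc38a4* had 27.6 CPM in the same embryo, where the others had 157.5 to 252.7 CPM. *Cdkn1c* had 0.197 CPM in *Upf2*-null embryo 5, with 5.01 to 28.2 CPM in the others. *Peg10* had 3.54 CPM in that embryo, with 0 to 0.598 CPM in the others. *Ndn* had 1.18 CPM (6 counts) in that embryo and 0 in the others.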

How the results depend on the processing

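No imprinted gene was called by edgeR under any alternative run, and with DESeq2 1 was called lower, *Phlda2*. No gene of the imprint maintenance or other imprinted lists was called under any of them. The number lower at an unadjusted p under 0.05 was 2 with DESeq2, 3 with limma voom, 2 with the replicate block, 2 without control embryos 2 and 4, and 1 to 2 with 1 embryo left out (2 when *Upf2*-null embryo 5, *Upf2*-null embryo 6, control embryo 2 or control embryo 4 was dropped). The number higher was 2 with limma voom and 1 to 2 with 1 embryo left out (2 without control embryo 6). The median log2 fold change of maternally expressed members ran from -0.41 to -0.09 and that of paternally expressed members from -0.02 to 0.39 with 1 embryo left out. With limma voom they were -0.63 and 0.28, with DESeq2 the paternal median was 0.31, and without control embryos 2 and 4 the paternal median was -0.02.

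Of 188 member values under alternatives other than leaving out 1 embryo, 14 changed sign and 1, *Phlda2* with DESeq2, crossed the threshold. The cause was not tested. With limma voom, 9 of 27 members kept their sign but moved by over 1.5 times, and 6 changed sign. There *Kcnq1ot1* was at 0.11, *Sgce* at 0.20, *Ndn* at 0.24, *Grb10* at -0.33, *Slc38a4* at -0.14 and *Mcts2* at 0.10. With DESeq2, *Ndn* was at 1.99 and *Slc38a4* at -0.000259. With DESeq2 size factors *Slc38a4* was at -0.000645. With the replicate block, *Ascl2* was at 0.60 and *Grb10* at -0.68. Without control embryos 2 and 4, *Mest* was at -0.025 and *Slc38a4* at -0.094. Without *Upf2*-null embryo 2 and control embryo 5, *Mcts2* was at 0.068. With 1 embryo left out, ranges that crossed 0 were -0.38 to 0.076 (*Cdkn1c*), -0.54 to 0.039 (*Slc22a18*), -0.73 to 0.25 (*Kcnq1ot1*), -1.39 to 0.14 (*Igf2*), -2.09 to 1.81 (*Peg10*), -0.40 to 0.34 (*Grb10*), -0.40 to 2.499 (*Dlk1*), -0.081 to 0.17 (*Slc38a4*) and -0.080 to 0.064 (*Mcts2*). The correlation of *Peg3* and *Usp29* was 0.078 on deviations from the genotype mean, and that of *Igf2r* and *Airn* was -0.012 without *Upf2*-null embryo 2 and control embryo 5.

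Same-numbered embryos had correlations of -0.137 to 0.0687, and none correlated best with its own number. With totals of 4056072 to 5993745 counts, members with few counts had standard errors above 1 on the log2 scale, and differences of that size were not detectable.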
